A study of Mus musculus with 8 samples.

Results

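The genes described here are the cyclins, cyclin-dependent kinases (CDKs), CDK inhibitors, E2F transcription factors, minichromosome maintenance (MCM) genes and the 2 Cables genes. They were taken by gene name from the array files, leaving out Cdk9, and comprised 52 genes read by 79 of the 39429 probes. Gene expression was measured on 2-colour arrays in striatal RNA of adult female C57Bl/6J mice. Wildtype mice were compared with Brd2+/- mice, which carry a gene-trap vector in 1 copy of Brd2, with 4 samples per genotype from crosses of heterozygous parents. Each array held 2 replicates of 1 genotype, the odd-numbered one labelled with Cy3 and the even-numbered one with Cy5. The labels call the tissue both striatum and prefrontal cortex striatum. The design text calls the replicates biological, but no label says that each was 1 animal, and the p-values reflect only how these samples varied.

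Cyclins bind and switch on CDKs. D-type cyclins act with Cdk4 and Cdk6 and E-type cyclins with Cdk2 to phosphorylate the retinoblastoma (RB) protein, which frees E2F factors to switch on genes of DNA synthesis, among them the MCM genes. Mcm2 to Mcm7 form the helicase loaded at replication origins. CDK inhibitors hold these kinases in check, and the Cables proteins link CDKs to the Abl kinase. Most cells of the adult striatum no longer divide, and several CDKs serve other tasks there: Cdk5 is active in neurons with its partners p35 and p39, and Cdk7, Cdk8, Cdk12, Cdk13 and Cdk19 act on transcription. Brd2 has been described in dividing cells as a partner of E2F proteins at cyclin genes.

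MCM and E2F promoters illustrate this circuit, since E2F factors bind words such as TTTCCCGC, TTTCGCGC, TTTGCCGC and TTTGGCGC. These 4 words were searched on both strands in the RefSeq promoter table (GRCm38.p6, 250 bases before to 50 after each start site), where words on opposite strands can overlap. At least 1 word was present for 704 of 27025 genes (2.6%). It was present for 5 of the 7 MCM genes matched (Mcm3, Mcm5, Mcm6, Mcm7 and Mcm8), for 3 of 6 E2F genes (E2f2, E2f3 and E2f7) and for Cdk1, Cdk2 and Cdkn2a, but for none of the 6 cyclin and 10 other CDK genes matched. Of the 52 genes 40 were in the table. A match is a description and not a site. The windows below lie upstream of the start site and show words in MCM promoters in capitals. In Mcm5 a further word on the other strand overlaps the one marked.
Mcm5 (chr8:75109345-75109374, plus strand): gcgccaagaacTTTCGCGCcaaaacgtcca
Mcm6 (chr1:128359734-128359763, minus strand): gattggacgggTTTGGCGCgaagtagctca
Mcm7 (chr5:138172030-138172059, minus strand): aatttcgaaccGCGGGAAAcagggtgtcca

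The first 30 bases of 60-base probes are shown for the genes whose differences had the smallest p, with mm9 coordinates from the array files. No annotation of that build was used, so exon and untranslated region are not given. The base at which each probe starts in its transcript follows the file.
Cables2 (chr2:179993645-179993704, minus strand, from base 2484): atctttaggtgcaataagtcgttcctgcaa
Cdk14 (chr5:4803733-4803792, minus strand, from base 4503): tcaaatgaagtaagcaaggttctgttctca
Ccne1 (chr7:38882937-38882960, minus strand, from base 1874, coordinates that cover part of the probe): gcatgtcctgccttcatgaactcttatttt
Cdk19 (chr10:40201715-40201774, plus strand, from base 3765): gaaagccagtgattagctgtcacaaaaggc
Cdk16 (chrX:20274073-20274287, plus strand, from base 1586, coordinates that span a gap): ctcaccaagctgctgcagtttgagggtcgc

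Sample quality differed by dye. Spots that the scanner software called well above background made up 37.7% to 47.6% of spots in Cy3 samples and 65.9% to 75.5% in Cy5 samples, so dim genes were seen in Cy5 alone. At the brightest Brd2 probe, from base 4590 of the transcript, the mean log2 intensity with the dye effect removed was 12.86 ± 0.25 for wildtype and 12.004 ± 0.30 for heterozygous samples (SD, n = 4), and the heterozygous mean was 55.4% of wildtype. That difference was the most extreme of all splits of these samples in an exact two-sided permutation test (p = 0.0286, the smallest possible), which ignores shared arrays, but it missed the threshold in limma over all genes (-0.85, SE 0.192). The library labelled heterozygous replicate 3 stood at 12.44, below every wildtype value but beside the lowest, 12.52. The other heterozygous values were 11.79, 11.96 and 11.83. On this probe alone its label is in doubt, and the label was not tested otherwise. Differences of members, at the probe that represents each, and of named pathway genes are given both ways if they change sign or move by over 1.5 times without it. Class and pathway list medians are given over all samples unless stated, with their ranges on leaving out each sample at the end. A second, dimmer Brd2 probe, from base 1265 of the transcript which exceeded background in 3 heterozygous and 2 wildtype samples, was not lower: it measured 7.62, 8.23, 8.06 and 8.10 (wildtype) and 8.32, 8.09, 8.57 and 8.15 (heterozygous). Markers of striatal projection neurons were all measured (11 of 11), 10 of them well above background in every sample. All 11 were lower in heterozygous samples (median -0.43, 3 or 27.3% at an unadjusted p under 0.05, against 8.77% of all genes). Their summed log2 level, over the 8 with complete values, was 18.44 to 18.67 in wildtype and 17.45 to 18.81 in heterozygous samples, and their median stood 0.71 and 1.02 below the wildtype mean in heterozygous replicates 2 and 3. Cortical excitatory neuron markers were measured as well (7 of 7), 2 of them well above background in every sample. All 7 were higher in heterozygous samples (median 1.43, 5 or 71.4% at an unadjusted p under 0.05). Their summed log2 level was 11.62 to 12.95 in wildtype and 13.15 to 14.72 in heterozygous samples. Their medians relative to the wildtype mean were 2.19, 1.52, 1.31 and 0.64 in heterozygous replicates 1 to 4 and at most 0.85 in wildtype. The part of either cell type in the results below, those of Cables2, Cdk14 and Ccne1 included, was not tested.

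Of the 52 genes 28 were well above background in all 8 samples, 6 in 5 to 7 samples and 12 in exactly 4, which were the 4 Cy5 samples in each case. Those 46 genes passed the filter of 4 samples and were tested. The remaining 6 were the mitotic kinase gene Cdk1, the cyclin D partner Cdk6, the cyclin genes Ccnb3 and Ccne2 (0 samples each), the cyclin gene Ccna1 and the tumour suppressor gene Cdkn2a (2 samples each, both heterozygous and Cy5). All 3 Cdk1 probes were at background in every sample. The tested mitotic cyclins Ccna2, Ccnb1 and Ccnb2 and the kinase Cdk2 were each seen in the 4 Cy5 samples alone, whereas the D-type cyclins Ccnd1, Ccnd2 and Ccnd3 and their partner Cdk4 were seen in all 8. Genes that mark dividing cells were likewise rarely seen: of 18 proliferation markers 11 were tested, and Rrm1 alone was well above background in all samples. A probe at background gives only a bound, not evidence that the gene is silent. Over the whole array more spots passed in heterozygous than in wildtype Cy5 samples, so the counts for Ccna1 and Cdkn2a are not particular to these genes.

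**Figure D1:**
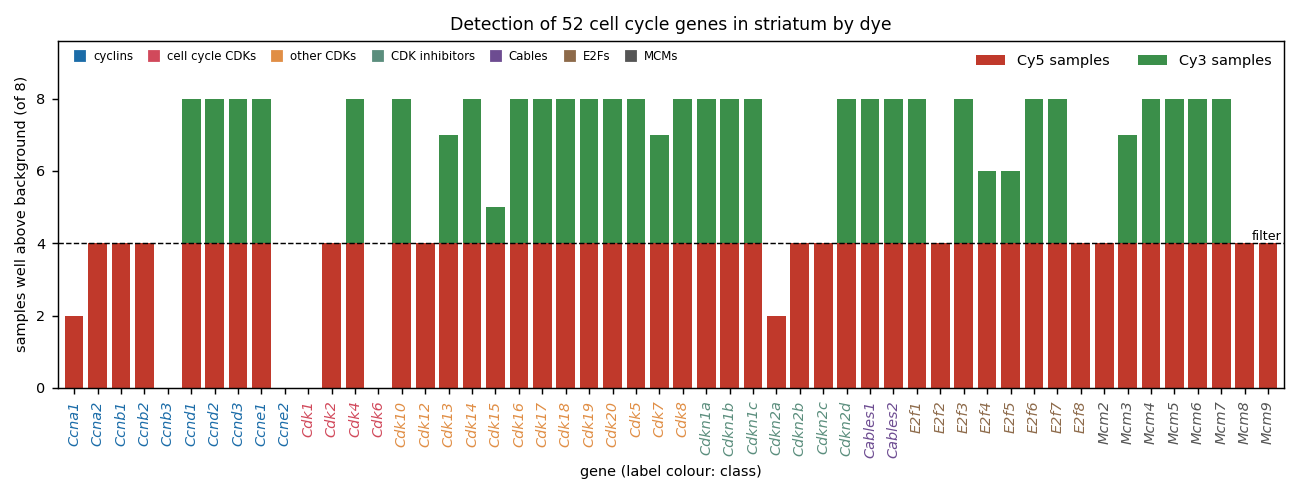
Number of samples, of 8, in which each gene's probe was well above background (y axis) for the 52 genes (x axis, label colour by class), with bars split into Cy5 (red) and Cy3 (green) samples. The dashed line marks the filter of 4 samples, and 12 genes reach it through Cy5 samples alone.

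No gene of the 46 passed the threshold for a genotype difference in limma (Benjamini-Hochberg adjusted p under 0.05 over 19830 genes, where percent called was 0%). At an unadjusted p under 0.05 there were 5 of 46 (10.9%), 4 higher and 1 lower in heterozygous samples, against 8.77% of all genes (3.93% higher and 4.84% lower). The groups did not overlap for 4 of the 45 genes with values in all samples, against 8.71% of all such genes. These shares are near those of all genes. The median difference, heterozygous minus wildtype on the log2 scale, was -0.0093 over the 46 genes (22 positive, 24 negative) and -0.022 over all genes (9029 positive, 10801 negative). Without normalization between arrays these medians were 0.13 and 0.091. Without the library labelled heterozygous replicate 3, discussed above, 8 of the 46 differences changed sign. For 42 of the 46 the 95% interval of the difference lay within 1 log2 unit, a 2-fold change, on either side of 0. These intervals reflect the main processing alone, and 12 of the genes were seen in Cy5 samples alone. Alternatives went beyond the interval for Mcm8 (down to -0.49, interval -0.37 to 0.086) and Cdk7 (down to -0.58, interval -0.53 to 0.23). For dim genes the intervals are thus no firm bound on the fold change. Differences below are log2 values, each with its standard error (SE) from the fit. Sample values are log2 intensities after removal of the dye effect, in the order of replicates 1 to 4.

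**Figure D2:**
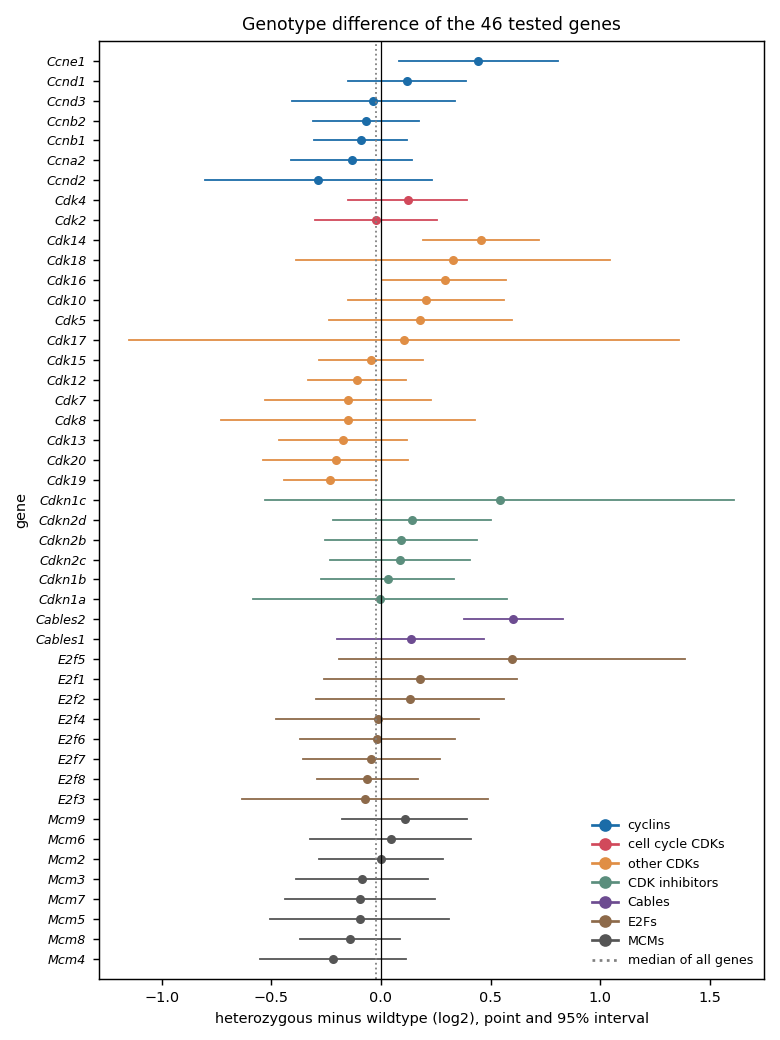
Heterozygous minus wildtype difference (log2, x axis) of the 46 tested genes (y axis, by class) with 95% intervals from the fit, 4 samples per genotype. Most intervals span 0, and the interval of Cables2 (0.38 to 0.83) lies farthest from it.

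Cables2, whose protein binds CDKs and the Abl kinase, had the smallest p of the 46 genes and the 15th smallest of all genes. Wildtype samples measured 9.82, 9.88, 10.05 and 9.96, and heterozygous samples 10.57, 10.56, 10.48 and 10.51. Every heterozygous sample lay above every wildtype sample. The difference was 0.60 (SE 0.098), a 1.52-fold higher heterozygous level, and it missed the threshold after adjustment over all genes (limma adjusted p = 0.328). It was 0.59 within the Cy3 samples, 0.62 within the Cy5 samples and 0.62 without the library labelled heterozygous replicate 3. Cables1, its paralogue, measured 10.78 to 11.02 in wildtype and 10.83 to 11.38 in heterozygous samples. Its groups overlapped, its difference was 0.14 (SE 0.145), and without heterozygous replicate 3 it was -0.0087.

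Among the cyclins 7 of 10 genes were tested, 2 with a positive and 5 with a negative difference, and their median was -0.067, which turned positive with processed signals under quantile normalization (0.011) and without normalization between arrays (0.019). Ccne1, the partner of Cdk2 at the start of DNA synthesis, had the smallest p of them. Its values were 10.29, 10.40, 10.41 and 10.62 (wildtype) and 10.66, 10.87, 11.25 and 10.72 (heterozygous). The groups stood apart by a narrow gap between wildtype replicate 4 and heterozygous replicate 1. The difference was 0.44 (SE 0.156, limma adjusted p = 0.514) and fell to 0.29 without heterozygous replicate 3, the highest sample. A second Ccne1 probe, from base 741 of the transcript, exceeded background in 2 heterozygous and 0 wildtype samples and was not tested. Heterozygous Cy5 samples had more spots above background than wildtype ones over the whole array.

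The D-type cyclins, which respond to growth signals, showed no common direction. Ccnd2 measured 11.37, 11.27, 11.51 and 11.54 (wildtype) and 11.68, 11.20, 10.56 and 11.10 (heterozygous). The library labelled heterozygous replicate 3 was the lowest of the 8, and replicate 1 the highest. The Ccnd2 difference was -0.29 (SE 0.224) and -0.065 without replicate 3. In that library the median striatal projection neuron marker stood 1.02 below the wildtype mean, and the part of these neurons in the Ccnd2 value was not tested. Ccnd1 differed by 0.12 (SE 0.117), with 3 heterozygous values because an outlier spot was left out, and Ccnd3 by -0.035 (SE 0.161), or -0.19 without heterozygous replicate 3. The mitotic cyclins Ccna2, Ccnb1 and Ccnb2 lay between -0.13 and -0.067, at probes seen in Cy5 samples alone. Without heterozygous replicate 3 Ccna2 moved from -0.13 to -0.088 and Ccnb2 from -0.067 to -0.10.

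**Figure D3:**
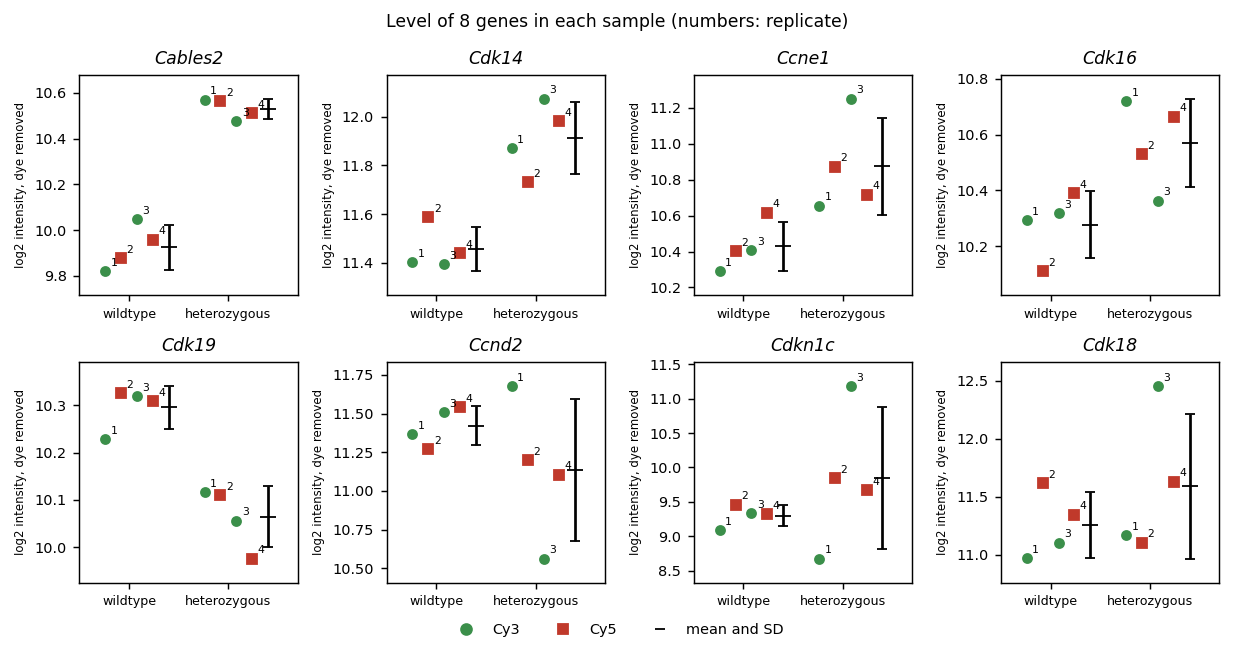
Log2 intensity with the dye effect removed (y axis) in each wildtype and heterozygous sample for 8 genes, numbered by replicate and coloured by dye, with mean and SD (n = 4). The groups separate for Cables2, Cdk14, Ccne1 and Cdk19, and heterozygous replicate 3 is the highest sample for Cdkn1c (11.18) and Cdk18 (12.46).

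Cdk4 and Cdk2 were the tested members among the kinases of the division cycle. Cdk4 measured 12.13, 12.04, 11.90 and 12.09 (wildtype) and 12.04, 12.26, 12.33 and 12.03 (heterozygous). The groups overlapped, and the difference was 0.12 (SE 0.117), or 0.048 without heterozygous replicate 3. Its 3 probes disagreed: those starting at bases 861, 1181 and 1286 of the transcript gave -0.20 (SE 0.303), 0.55 (SE 0.239) and 0.12 (SE 0.116), and all were well above background in every sample. The first 30 bases of each are shown so that the positions can be compared.
Cdk4 from base 861 (chr10:126503162-126503221, plus strand): ttggattgcctccagaagacgactggcctc
Cdk4 from base 1181 (chr10:126504174-126504233, plus strand): tacagagaatattttaagccttaaataaca
Cdk4 from base 1286 (chr10:126504279-126504338, plus strand): cttcttccctccctgatttatactgggatc
Cdk2 differed by -0.022 (SE 0.121), or 0.075 without heterozygous replicate 3, at a probe seen in Cy5 samples alone.

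The 13 other CDKs were all tested, 6 with a positive and 7 with a negative difference and a median of -0.046. That median was positive with processed signals (0.016 by quantile, 0.0074 by the 75th percentile) and without normalization between arrays (0.092). Without heterozygous replicate 3 it was 0.019. Of these 13 genes 3 (23.1%) had an unadjusted p under 0.05, against 8.77% of all genes. They were 3 of the 5 members at that level, and the class was not tested as a whole. Cdk14, a kinase that pairs with cyclin Y and acts in Wnt signalling, measured 11.40, 11.59, 11.39 and 11.44 (wildtype) and 11.87, 11.73, 12.07 and 11.98 (heterozygous). Its groups did not overlap. The difference was 0.46 (SE 0.114, limma adjusted p = 0.427), 0.57 in the Cy3 and 0.34 in the Cy5 samples, and a second probe gave 0.38 (SE 0.312). Cdk16, a brain-expressed kinase of the PCTAIRE group, measured 10.29, 10.11, 10.32 and 10.39 (wildtype) and 10.72, 10.53, 10.36 and 10.66 (heterozygous). Heterozygous replicate 3 fell among the wildtype values, and the difference was 0.29 (SE 0.122), or 0.38 without it. The other PCTAIRE kinases varied more. Cdk17 ranged from 10.99 to 13.13 within the heterozygous samples alone and differed by 0.11 (SE 0.543). The lowest was heterozygous replicate 3, and without it the difference was 0.61. Cdk18 differed by 0.33 (SE 0.310) and by -0.0034 without heterozygous replicate 3, which at 12.46 stood above the other samples (10.97 to 11.63). In that library the median oligodendrocyte marker stood 0.38 above the wildtype mean (5 markers with complete values). Their summed log2 level was 15.28 to 15.62 in wildtype and 15.35 to 16.06 in heterozygous samples. Over all samples 4 of the 6 markers tested were higher in heterozygous samples and 2 lower. Among the latter, Mbp differed by -0.57 (SE 0.155), at most 12.30 in heterozygous samples against a wildtype mean of 12.50. The part of oligodendrocytes in the Cdk18 value was not tested.

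The transcription-linked CDKs were led by Cdk19. Cdk19, the Mediator kinase, measured 10.23, 10.33, 10.32 and 10.31 (wildtype) and 10.12, 10.11, 10.06 and 9.98 (heterozygous). All heterozygous samples lay below all wildtype samples. The difference was -0.23 (SE 0.093, limma adjusted p = 0.542) and it was -0.23 without heterozygous replicate 3. Its paralogue Cdk8 differed by -0.15 (SE 0.251), with 10.20 in heterozygous replicate 3 and 0.12 as the difference without it. The Cdk8 probes from bases 65 and 2427 gave 0.12 (SE 0.155) and -0.24 (SE 0.101), the latter measured in all samples. Cdk13 and Cdk12, which phosphorylate RNA polymerase II during elongation, differed by -0.17 (SE 0.127) and -0.11 (SE 0.096), and alternatives reached 0.0095 and 0.027. Without heterozygous replicate 3 Cdk13 differed by -0.11. Cdk7, the CDK-activating kinase of TFIIH, differed by -0.15 (SE 0.164), by 0.019 without heterozygous replicate 3 and by 0.047 in the Cy5 samples. A second Cdk12 probe gave 0.079 (SE 0.112).

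Cdk5, the neuronal CDK, measured 11.76, 12.04, 12.12 and 12.39 (wildtype) and 12.15, 12.14, 12.64 and 12.11 (heterozygous). The groups overlapped. Its difference of 0.18 (SE 0.180) was 0.45 within the Cy3 samples and -0.093 within the Cy5 samples, and 0.022 without heterozygous replicate 3. Its activator genes Cdk5r1 and Cdk5r2, for p35 and p39, differed by 0.067 (SE 0.157, 3 wildtype values) and -0.16 (SE 0.123), and Cdk5r1 by 0.16 without heterozygous replicate 3. Cdk10 differed by 0.21 (SE 0.153) and Cdk20 by -0.21 (SE 0.143), and Cdk15 by -0.046 (SE 0.103). Heterozygous replicate 3 had the highest Cdk10 value, 12.37 against at most 12.03 elsewhere. Without it these 3 differences were 0.058, -0.31 and -0.096.

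**Figure D4:**
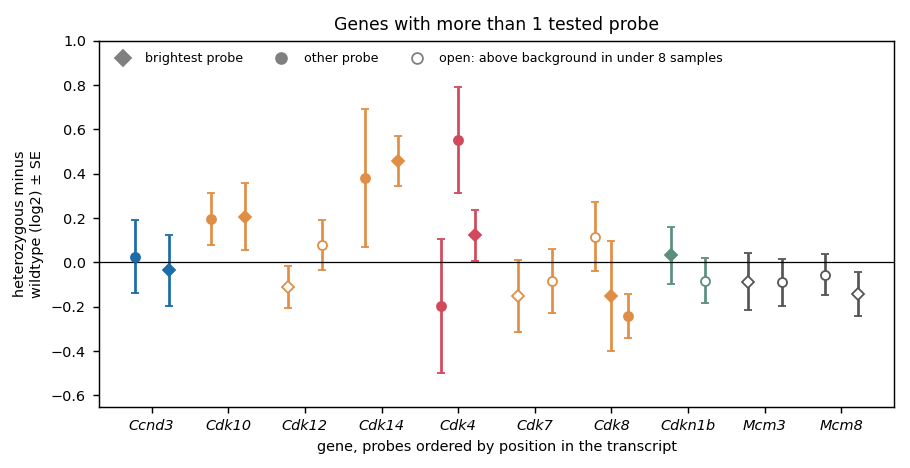
Heterozygous minus wildtype difference (log2, y axis, bars show SE) at each tested probe of the 10 genes with more than 1, ordered by position in the transcript. Diamonds mark the brightest probe, and open symbols mark probes well above background in under 8 samples. Cdk4 probes range from -0.20 to 0.55 and both Cdk14 probes are positive.

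Of the 7 CDK inhibitor genes 6 were tested, with a median of 0.090, or 0.011 without heterozygous replicate 3, 0.036 without wildtype replicate 1, 0.051 without heterozygous replicate 2 and 0.21 without heterozygous replicate 4. Cdkn1c, which encodes the imprinted inhibitor p57, measured 9.09, 9.46, 9.34 and 9.32 (wildtype) and 8.67, 9.84, 11.18 and 9.67 (heterozygous). The heterozygous samples spanned the wildtype range on both sides, and the library labelled heterozygous replicate 3 was the highest. Its difference of 0.54 (SE 0.463) was 0.01 without that library and 1.02 without heterozygous replicate 1. Choroid plexus, ependymal and meningeal markers were all measured (7 of 7), 4 of them in all samples. Their summed log2 level was 12.78 to 13.92 in wildtype and 12.33 to 15.996 in heterozygous samples. Their medians relative to the wildtype mean were -0.52, 0.26, 1.40 and 0.55 in heterozygous replicates 1 to 4. In wildtype replicates 1 to 4 these medians were -0.16, -0.052, 0.24 and 0.038. The part of these tissues in the Cdkn1c value was not tested. Cdkn1a (p21) differed by -0.0037 (SE 0.250) and Cdkn1b (p27) by 0.032 (SE 0.131). Among the INK4 genes, which block Cdk4 and Cdk6, Cdkn2d differed by 0.14 (SE 0.156), Cdkn2b by 0.092 (SE 0.150) and Cdkn2c by 0.088 (SE 0.139). Without heterozygous replicate 3 the differences were -0.13 for Cdkn1a, -0.045 for Cdkn1b, 0.029 for Cdkn2d, 0.041 for Cdkn2b and 0.011 for Cdkn2c.

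All 8 E2F genes were tested, 3 with a positive and 5 with a negative difference and a median of -0.016, or 0.15 without normalization between arrays. E2f5, a factor linked to repression with the RB relatives p107 and p130, had the largest difference. It measured 8.95, 8.26, 7.28 and 8.05 (wildtype) and 9.14, 8.65, 8.37 and 8.77 (heterozygous). The wildtype samples spread widely and overlapped the heterozygous ones, and wildtype replicate 3 was the lowest. The difference of 0.60 (SE 0.342) was 0.24 without wildtype replicate 3 and 0.94 without wildtype replicate 1. E2f5 was well above background in 3 samples per genotype. The activator E2f1 differed by 0.18 (SE 0.191) and E2f3 by -0.073 (SE 0.242). The repressors E2f6, E2f7 and E2f8 lay between -0.062 and -0.016, E2f4 differed by -0.015 (SE 0.200) and E2f2 by 0.13 (SE 0.186). Without heterozygous replicate 3 the differences were 0.045 for E2f1, -0.15 for E2f3, -0.11 for E2f6, -0.15 for E2f7, -0.040 for E2f8 and 0.047 for E2f4. E2f3 differed by 0.27 in the Cy3 samples and by -0.42 in the Cy5 samples.

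All 8 MCM genes were tested, 3 with a positive and 5 with a negative difference, and the median was -0.092, or 0.082 without normalization between arrays. Mcm4, a helicase subunit, had the smallest p of them. Its values were 10.52, 10.43, 10.09 and 10.19 (wildtype) and 9.97, 9.91, 10.21 and 10.26 (heterozygous). The lowest values were heterozygous (replicates 1 and 2) and the highest wildtype (replicates 1 and 2). Replicates 3 and 4 went the other way, with both heterozygous values above both wildtype values. The difference was -0.22 (SE 0.144). Mcm8, which acts with Mcm9 in DNA repair, differed by -0.14 (SE 0.099) and Mcm9 by 0.11 (SE 0.123), both at probes seen in Cy5 samples alone. Mcm5, Mcm6 and Mcm7, whose promoter words are shown above, differed by -0.097 (SE 0.177), 0.045 (SE 0.159) and -0.096 (SE 0.148), Mcm3 by -0.087 (SE 0.131) and Mcm2 by 0.0019 (SE 0.122). Without heterozygous replicate 3 the differences were 0.070 for Mcm2, -0.16 for Mcm3, -0.014 for Mcm5, -0.085 for Mcm6, -0.21 for Mcm7 and 0.17 for Mcm9. Relative to the wildtype mean, the median MCM level was -0.15, -0.046, -0.067 and -0.055 in heterozygous replicates 1 to 4 and 0.10, 0.032, 0.086 and -0.079 in wildtype, so the genotypes overlapped.

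**Figure D5:**
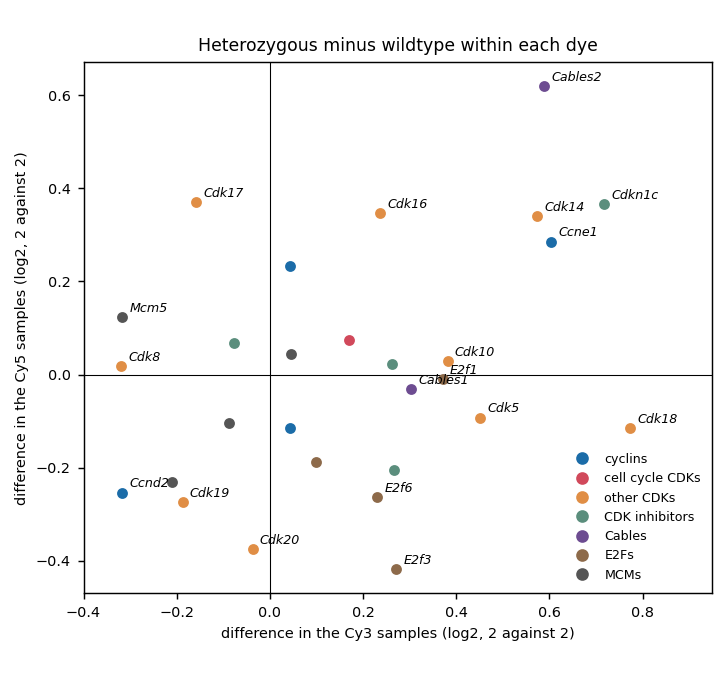
Heterozygous minus wildtype difference (log2) in the Cy3 samples (x axis) and in the Cy5 samples (y axis), 2 against 2 each, for the 28 genes well above background in all 8 samples, coloured by class. Cables2 lies near 0.6 in both dyes, and 15 of the 28 genes have the same sign in both.

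Other genes of the pathway, from lists written for this comparison, gave no call either. Counts at an unadjusted p under 0.05 below stand beside a share of 8.77% over all genes. Of 12 RB pocket protein and partner genes 11 were tested, none at an unadjusted p under 0.05, with a median of -0.00041. Rbl2, the RB relative p130, differed by 0.50 (SE 0.236) and Mybl2, a factor of dividing cells, by -0.23 (SE 0.103), while Rb1 itself differed by -0.15 (SE 0.175), or 0.0047 without heterozygous replicate 3. Rbl2 differed by 0.24 without heterozygous replicate 4. Of 26 CDK partners and regulators 22 were tested, 1 of them at an unadjusted p under 0.05, with a median of -0.032. That gene was Cdk5rap1 at -0.33 (SE 0.134), followed by the cyclin gene Ccng2 at -0.32 (SE 0.152). Of 19 origin licensing and firing genes 15 were tested, 5 with a positive and 10 with a negative difference. Their median was -0.067, or 0.067 without normalization between arrays. Gmnn, the licensing inhibitor geminin, differed by -0.45 (SE 0.161), or -0.29 without heterozygous replicate 3, seen in Cy5 samples alone, and Orc2, an origin recognition subunit, by 0.40 (SE 0.170), and these were the 2 of 15 with an unadjusted p under 0.05. Orc2 differed by 0.13 with processed signals, under quantile or percentile scaling, and by 0.24 without heterozygous replicate 4. The groups did not overlap for 4 of the 15, against 8.71% of all genes with values in all samples. All 4 were lower in heterozygous samples: Gmnn, Pcna at -0.22 (SE 0.098), Cdc45 at -0.18 (SE 0.093) and Gins2 at -0.072 (SE 0.087). Cdc45 and Gins2 were well above background in 2 samples per genotype, and the list was not tested as a whole. Proliferation markers had a median of -0.080 over the 11 tested, with none at an unadjusted p under 0.05. The smallest p belonged to Cenpa, the centromeric histone, at 0.23 (SE 0.0996), well above background in 2 samples per genotype, and it differed by 0.93 and 0.68 with processed signals under quantile and percentile scaling. Rrm1, a ribonucleotide reductase subunit, differed by -0.32 (SE 0.193), or -0.16 without wildtype replicate 3 and 0.029 in the Cy5 samples. Median proliferation marker levels relative to the wildtype mean lay between -0.13 and 0.060 in heterozygous and between -0.094 and 0.080 in wildtype samples. Neuroblast and progenitor markers (6 of 6 measured) had summed log2 levels of 11.31 to 11.48 in wildtype and 11.19 to 11.72 in heterozygous samples. In such tissue samples a change in the number of dividing cells and a change in RNA per cell cannot be told apart.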

How the data were processed

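Per the file headers, the scanner files come from Agilent Feature Extraction 10.7.3.1 (array design 026655), and the mean spot intensity and median local background intensity they give are linear. Both samples of an array have identical files, and each was read from its own channel. The deposited value table holds a ratio of background-subtracted median intensity to the median of its column (column medians of 1, found from the values, not log-transformed). It served as an alternative, as did the software's processed intensities.

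Background was removed with normexp at an offset of 50, dyes were balanced by loess and channels by Aquantile, and log2 values per channel were computed from the deposited intensities (limma 3.58.1 and statmod 1.5.0 under R 4.3.3). Control spots (1377) were left out, and of the other 43020 spots none was saturated and the 230 to 978 marked as outliers in a sample were left out there. Probes had to be well above background in at least 4 of 8 samples, and the brightest probe represented a gene, which left 19830 genes. Gene names were updated through RefSeq (GRCm38.p6), 27234 probes matching on accession and 3576 on symbol, and members kept the file's name. The Cdk3-ps probe, now named Cdk3, is no member. The fit used lmFit and eBayes with genotype and dye, and the shared array as random block (consensus correlation 0.0012), with Benjamini-Hochberg adjustment. An array held 1 genotype, so array and genotype effects cannot be fully told apart. All arrays had 1 slide, so slide could not be tested.

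The members and lists were chosen with earlier results of these data known. Named genes were Brd2, the Cables genes, the 2 smallest p and the brightest gene of each class, a preset list of members and the 2 smallest p of each pathway list. Others were named as members or after their values were seen (Rb1, Cdk5r1, Cdk5r2, Pcna, Cdc45, Gins2). The fit was also run on simulated data with planted changes larger than any member's difference and no array effect. That run says nothing of smaller differences or of array effects. Alternatives covered background correction, normalization, value table, dim probes, outlier spots, probe choice, dye, array and replicate blocks, prior, threshold and leaving out each sample. The number of samples limits precision. Figures used matplotlib 3.10.9 and pandas 2.3.3.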

Additional observations from a re-analysis of the deposited data

Results flagged for a closer look

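In 4 of 90 groups of 4 samples, 1 sample lay far from the other 3 relative to the group's range, and chance gives about 1 in 20. Cdk5 measured 12.64 in the library labelled heterozygous replicate 3 against 12.11 to 12.15 in the other heterozygous samples. E2f4 measured 9.002 in heterozygous replicate 2 against 8.31 to 8.35. Cdk10 measured 11.59 in wildtype replicate 1 against 11.85 to 11.90, and Cdk15 measured 8.2 there against 8.28 to 8.30.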

How the results depend on the processing

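No member was called under any alternative, and Cables2 (0.56 to 0.78), Cdk14 (0.34 to 0.60), Ccne1 (0.29 to 0.62), Cdk16 (0.22 to 0.47) and Cdk19 (-0.27 to -0.051) kept their direction in all. In all 15 of 46 members kept their direction throughout. Over all genes 2 were called with processed signals under quantile normalization, 1 in Cy5 samples alone and 0 otherwise. Members at an unadjusted p under 0.05 numbered 1 to 6, while the share of all genes at that level ran from 0.67% to 11.8%. Without normalization between arrays they were 1 member and 0.67% of all genes. The replicate numbers did not pair the samples (correlations of same-numbered samples' deviations of 0.164, -0.289, -0.185 and -0.251). With the replicate block 0 genes and 0 members were called. The number of samples and the dim Cy3 signal limit what could be detected. The cause of the changes below was not tested, except that filters leave fewer genes.

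With processed signals under quantile normalization the medians were -0.022 for cell cycle CDKs, 0.011 for cyclins, 0.016 for other CDKs and -0.22 for proliferation markers, and Ccnd3 (0.033), Cdkn1a (0.036), E2f3 (0.053) and Mcm7 (0.050) changed sign. With the 75th percentile the medians were 0.0074 for other CDKs, -0.083 for RB genes and -0.23 for proliferation markers, and Ccnd3 (0.017), Cdk2 (0.067), Cdk4 (-0.0028), Cdkn1a (0.030), E2f3 (0.053) and Mcm7 (0.053) changed sign. Without normalization between arrays the medians were 0.53 for Cables, 0.15 for cell cycle CDKs, 0.019 for cyclins, 0.15 for E2Fs, 0.082 for MCMs, 0.092 for other CDKs, 0.13 for all members, 0.16 for RB genes, 0.069 for CDK partners, 0.067 for licensing genes and 0.061 for proliferation markers, and Ccnd3 (0.11), Cdk2 (0.051), Cdkn1a (0.17), E2f3 (0.10), E2f6 (0.13) and Mcm7 (0.082) changed sign. Among genes above background in all samples the medians were 0.12 for cell cycle CDKs, 0.042 for cyclins, 0.18 for other CDKs, 0.075 for all members and -0.32 for proliferation markers. The mean over probes gave -0.015 for other CDKs and -0.025 for Cdkn1b. Signs also changed with offset 16 (Cdkn1a 0.0028, Mcm2 -0.0027), in the deposited table (Cdk2 0.024, Cdkn1b -0.045) and with outlier spots kept (Cdkn1a 0.11).

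In Cy3 samples alone the medians were 0.27 for CDK inhibitors, 0.25 for E2Fs and -0.12 for RB genes, and Ccnd3 (0.044), E2f3 (0.27), E2f6 (0.23) and Mcm2 (-0.20) changed sign. In Cy5 samples alone they were -0.030 for MCMs, -0.093 for other CDKs and 0.029 for proliferation markers, and Cables1 (-0.031), Cdk2 (0.012), Cdk5 (-0.093), Cdkn1a (0.069), Cdkn1b (-0.20), Cdkn2c (-0.13), E2f1 (-0.010) and Rrm1 (0.029) changed sign.

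Leaving out each sample in turn gave medians of -0.11 to -0.015 for cyclins, -0.11 to -0.0074 for MCMs, -0.11 to 0.019 for other CDKs, -0.039 to 0.096 for E2Fs, 0.011 to 0.21 for CDK inhibitors, -0.16 to 0.027 for RB genes and -0.15 to -0.036 for licensing genes. Medians were -0.093 to -0.0045 for proliferation markers, -0.087 to -0.0012 for CDK partners and 0.017 to 0.081 for cell cycle CDKs. For Cables they were 0.31 to 0.41, and for all members -0.0094 to 0.029. Leaving out samples gave differences of -0.0087 to 0.23 for Cables1, -0.19 to 0.094 for Ccnd3, -0.10 to 0.075 for Cdk2, -0.19 to 0.17 for Cdkn1a, -0.045 to 0.14 for Cdkn1b, -0.33 to 0.097 for E2f3, -0.12 to 0.096 for E2f6, -0.084 to 0.070 for Mcm2 and -0.21 to 0.030 for Mcm7.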
